A study of Homo sapiens with 12 samples.

Results

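The positions described here are the iCLIP crosslink positions that lie on the mitochondrial chromosome of the human build hg19, on either strand. They were chosen as every deposited position whose chromosome is chrM. They numbered 4759 of 1162690 listed positions, or 0.409%, with a position counted once for each library that listed it. In iCLIP, ultraviolet light fixes proteins to the RNA they contact, an antibody pulls 1 protein down with its RNA, and cDNAs that stop at the crosslinked nucleotide are sequenced. The 12 libraries came from H9, an established human embryonic stem cell line, crosslinked at 400 mJ per square centimetre. The 6 groups were FOX2 P-KO, FOX2 WT, TDP43 P-KO, TDP43 WT, hnRNP M P-KO and hnRNP M WT, with 2 libraries each. FOX2 stands for RBFOX2, and P-KO is the knockout name in the labels, which do not expand it. The labels used here do not say how many P-KO clones there were, and the study calls the libraries of a group biological replicates.

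Mitochondria carry a small circular genome that is transcribed inside the organelle on both strands as long precursors. These are cut, mostly at the tRNAs, into rRNAs, tRNAs and the mRNAs of respiratory chain subunits. RBFOX2 regulates splicing through a short RNA motif, TDP43 binds UG-rich RNA and represses splicing of cryptic exons, and hnRNP M is a splicing regulator that prefers GU-rich RNA. All of these proteins are best known from the nucleus, so mitochondrial RNA is a place to ask whether the libraries differ by protein or look alike.

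Each listed position carried a count that covers 5 nt on both sides. Counts of overlapping windows cannot be added, so only windows whose centres stood 11 nt or more apart were used, picked in order of decreasing count, and their sums are called window counts. Window counts per library lay between 58191 and 648651. Mitochondrial window counts lay between 154 (the first hnRNP M P-KO library) and 11052 (the second FOX2 P-KO library), in 18 to 127 windows. A mitochondrial window held 8.56 to 88.4 counts on average, against 2.72 to 8.43 for other windows. The latter leave out the unplaced contig that carries nuclear ribosomal RNA genes. In the hnRNP M replicate 1 libraries the means were close, 8.56 against 7.86 in P-KO and 9.22 against 8.43 in WT. The authors listed only positions past a threshold, so a value of 0 means that nothing was listed. That threshold differed between transcripts and libraries. The lowest listed count on the 16S rRNA was between 5 and 119 and that on the COX1 mRNA between 4 and 10.

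The mitochondrial positions fell on 24 transcripts, named here by position against the RefSeq genes of the mitochondrial genome because the files give only transcript identifiers. Of these, 21 matched 1 gene each and 3 the only gene left, and every line of the files named a transcript, so positions outside transcripts could not appear. The plus strand of the reference held 4749 positions on 23 transcripts, and the minus strand 10 positions, all on ND6, a complex I subunit and the only listed transcript of that strand. The 2 rRNAs held 3190 positions (67.0%). All 13 mRNAs were listed, with 1519 positions (31.9%). Only 9 of the 22 tRNAs were listed, with 50 positions (1.05%), and the 13 genes without a position were all tRNAs. Some tRNA positions lay just before the first listed position of the next transcript: those of TRNF at 648 to 649, with RNR1 listed from 650, and those of TRNV at 1669 to 1672, with RNR2 listed from 1677. The positions of TRNR lay 7 nt before the first listed position of ND4L. Others did not. TRND had 3 distinct positions at 7583 to 7586, listed 13 times over 6 libraries. The last of them lay 91 nt before the first listed COX2 position. TRNI was listed at 4286 to 4289, and TRNL1 had 3 positions between 3239 and 3305. These distances are to listed positions and not to gene starts. The libraries shared only part of their positions. Of 1915 distinct positions, 890 were listed in 1 library and 176 in 6 or more, and 258 were listed for all 3 proteins. None was listed in all 12 libraries.

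RNR2, the 16S rRNA of the large mitochondrial ribosomal subunit (ENST00000387347.2, listed between 1677 and 3143), held most of the signal in nearly every library. It took 69.6% ± 12.4 of mitochondrial window counts (SD over 12 libraries) and ranked first in 12 of 12. With replicate 1 before replicate 2, FOX2 P-KO libraries had 73.8% and 78.8%, against 66.2% and 78.4% for FOX2 WT. For TDP43, P-KO libraries had 48.8% and 79.1% and WT libraries 59.7% and 76.5%. Shares for hnRNP M were 54.5% and 81.5% (P-KO), against 53.4% and 84.1% (WT). The second value was the higher one in every pair, and P-KO and WT overlapped within each protein.

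RNR1, the 12S rRNA of the small subunit (ENST00000389680.2, listed between 650 and 1547), held 13.96% ± 4.99 (SD over 12 libraries). Its share ranged from 5.91% in hnRNP M WT replicate 2 to 23.4% in FOX2 WT replicate 1. It ranked second in 11 libraries. In hnRNP M P-KO replicate 1, which had 154 mitochondrial counts, it held 11.04% and ND5, a complex I subunit, 12.99%. Per kilobase of RefSeq length, the share on RNR2 was 1.51 to 8.70 times that on RNR1, with a median of 3.26. Both hnRNP M replicate 2 libraries stood highest, with ratios of 8.02 in P-KO and 8.70 in WT, while the 4 FOX2 and TDP43 replicate 2 libraries lay at 3.27 to 3.63. The hnRNP M replicate 1 libraries did not stand out, with 3.02 in P-KO and 1.81 in WT. The FOX2 and TDP43 replicate 1 libraries lay at 1.51 to 3.25.

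Together the rRNAs held 83.5% ± 10.4 of mitochondrial window counts, the mRNAs 16.1% ± 10.6 and the tRNAs 0.369% on average (SD over 12 libraries). The mRNA share was lower in replicate 2 in 6 of 6 groups. It lay between 10.5% and 34.4% in the replicate 1 libraries and between 6.24% and 12.3% in the replicate 2 libraries. Replicate 2 libraries were also deeper on mitochondrial RNA, with 853 to 11052 mitochondrial window counts against 154 to 2590 in replicate 1, and the part of depth in this difference was not tested. Windows on tRNAs were listed in 7 libraries and held at most 78 counts. Among mRNAs, COX1, a catalytic subunit of cytochrome c oxidase, averaged 2.55% of mitochondrial window counts, ND4 2.44% and ND5 2.46%. The ND5 mean was 1.51% without hnRNP M P-KO replicate 1, where 20 of 154 counts lay on ND5. Per kilobase, RNR2 averaged 44.6% and RNR1 14.6%. ND4L, a complex I subunit, averaged 5.37% per kb, which rested on the hnRNP M replicate 1 libraries, with 9 counts in P-KO and 20 in WT. Its mean was 4.07% per kb without the first of these, 3.40% without the second and 1.77% without both, and ATP8 then averaged 2.56% per kb.

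**Figure D1:**
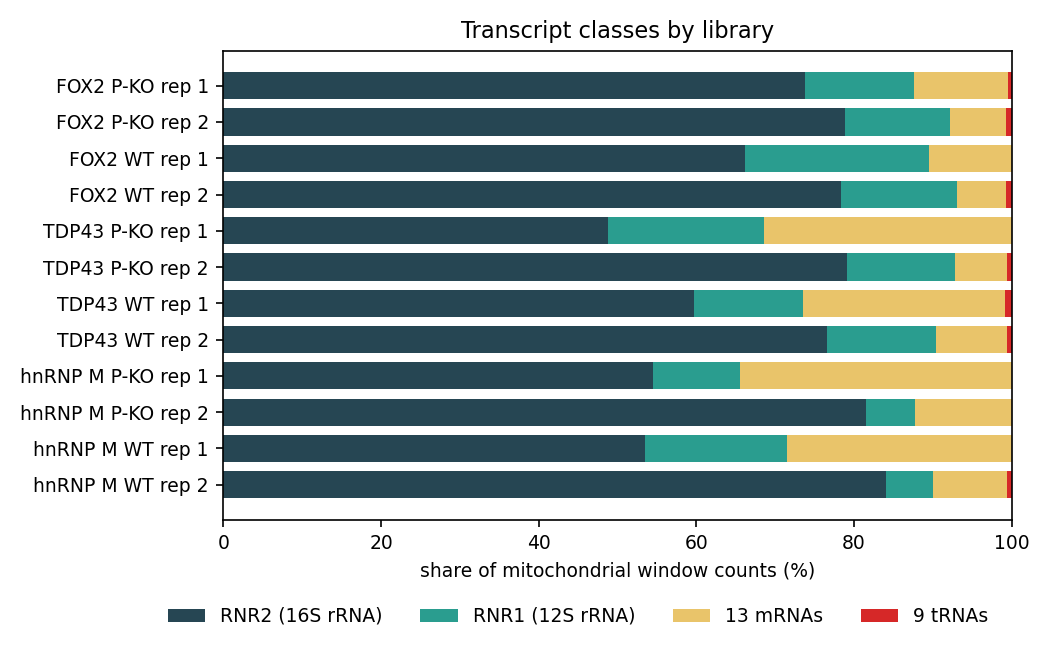
Share of mitochondrial window counts (%, horizontal axis) on RNR2, RNR1, the 13 mRNAs and the 9 tRNAs in each of the 12 libraries, 1 stacked bar per library. RNR2 is the largest block in every library, and the mRNA block is narrower in replicate 2 than in replicate 1 of each group.

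The mitochondrial share differed between the 2 libraries of every group. FOX2 libraries had 0.798% and 1.70% of window counts in P-KO, against 0.362% and 1.15% in WT. TDP43 libraries had 0.425% and 3.25% in P-KO, against 1.246% and 3.79% in WT. For hnRNP M the values were 0.248% and 1.47% (P-KO), against 0.404% and 2.36% (WT). If each count is taken as independent, the counting error was small beside these gaps. The exact 95% binomial interval was 3.72% to 3.86% for the highest library and 0.211% to 0.291% for the lowest. Such intervals cover counting error only, and whether reads or cDNAs were counted is not stated. Replicate 2 was higher in 6 of 6 groups, by 2.14-fold in FOX2 P-KO to 7.65-fold in TDP43 P-KO, and P-KO and WT overlapped for each protein.

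**Figure D2:**
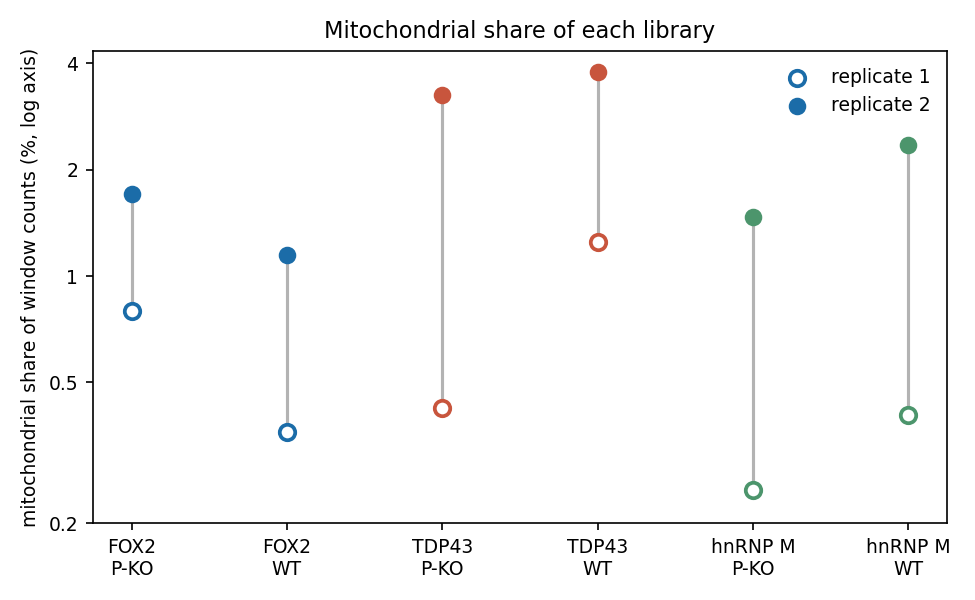
Mitochondrial share of window counts (%, log axis) for the 6 groups, open circles for replicate 1 and filled circles for replicate 2, joined by a line within a group. The filled circle is higher in every group, from 1.15% to 3.79%, against 0.248% to 1.246% for the open circles.

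No difference in share by genotype or by protein passed an exact permutation test. P-KO minus WT, averaged over the proteins, was -0.24 on the log2 scale (exact permutation within protein, two-sided, 216 arrangements, p = 0.75). By protein, the difference was 0.85 (FOX2), -0.89 (TDP43) and -0.69 (hnRNP M), and 2 libraries against 2 cannot reach an exact p below 0.333. Between proteins within a genotype the exact permutation p was 0.549 over 8100 arrangements, one-sided for a spread between proteins. Neither test blocked by replicate number, so the difference between replicates counted as spread within groups. The only pair of groups that did not overlap was FOX2 WT, at 0.362% and 1.15%, against TDP43 WT, at 1.246% and 3.79%. A share of a library cannot tell a higher mitochondrial signal from a lower nuclear one.

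Counted as windows and not as counts, the mitochondrial share did differ between proteins. Mitochondrial windows were 0.0454% to 0.111% of all windows in FOX2 libraries, 0.105% to 0.154% in TDP43 libraries and 0.228% to 0.401% in hnRNP M libraries (exact permutation within genotype, p = 0.00148). The hnRNP M libraries stood above all the others, while FOX2 and TDP43 overlapped. The hnRNP M libraries also listed fewer windows in all, 7299 to 32394, against 60452 to 112599 in the FOX2 set and 57236 to 97045 in the TDP43 set. Their mitochondrial windows numbered 18 to 95, against 36 to 125 for FOX2 and 60 to 127 for TDP43. The part of the total in this difference was not tested.

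The mitochondrial share moved with the share on the unplaced hg19 contig that carries nuclear ribosomal RNA genes. The ribosomal contig share was between 0.219% and 1.93% in replicate 1 libraries and between 1.97% and 4.61% in replicate 2 libraries. Over the 12 libraries, Pearson's r of the log2 shares was 0.923 (permutation p = 1e-05, the smallest that 100000 resamples can give) and Spearman's rho was 0.937 (permutation p = 5.0e-05). Adjusted over the 3 relations computed, these p-values were 3e-05 and 0.00015. Without the 2 hnRNP M replicate 1 libraries, the farthest from the median ribosomal share, r was 0.953. Both shares have the same total as denominator. Within the 6 replicate 2 libraries r was 0.934 (exact permutation p = 0.00833, adjusted 0.0125) and rho was 0.829 (exact permutation p = 0.0583, adjusted 0.0583). Within the 6 replicate 1 libraries r was 0.824 (exact permutation p = 0.0528, adjusted 0.0528) and rho was 0.829 (exact permutation p = 0.0583, adjusted 0.0583). Without the 2 libraries farthest from the median ribosomal contig share, r over the 4 libraries left was 0.735 in replicate 2 and 0.84 in replicate 1. Without the 2 farthest in mitochondrial share it was 0.983 in replicate 2 and 0.444 in replicate 1, so within replicate 1 the relation depended on which 2 libraries were left out. The ratio of the mitochondrial to the ribosomal contig share lay between 0.357 in FOX2 WT replicate 1 and 1.67 in hnRNP M WT replicate 1, with a median of 0.77.

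**Figure D3:**
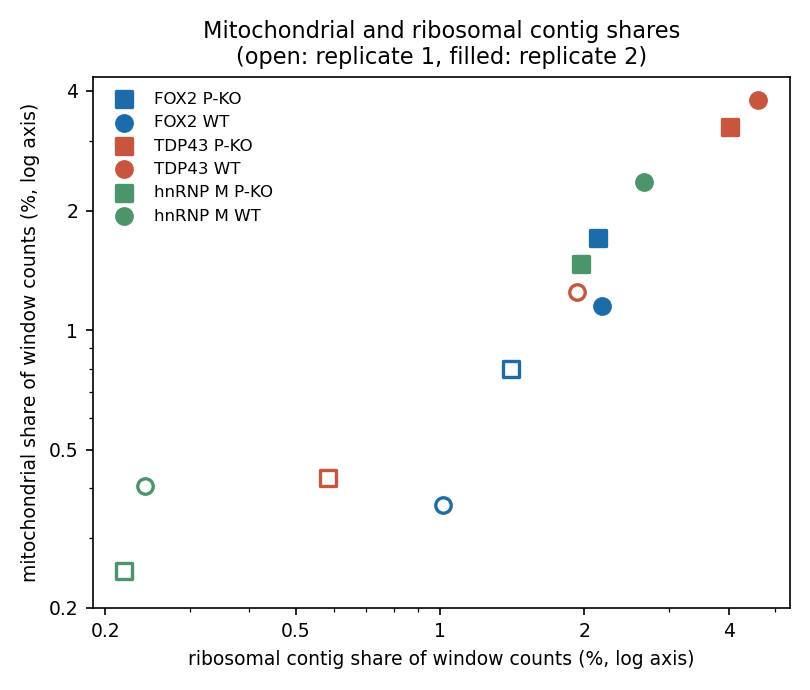
Mitochondrial share (vertical) against ribosomal contig share (horizontal) of window counts, both in % on log axes, 1 point per library, squares for P-KO and circles for WT, open for replicate 1 and filled for replicate 2. Libraries with more ribosomal contig signal have more mitochondrial signal, and all filled points lie at 1.97% or more on the horizontal axis.

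The minus strand was listed in 3 libraries, all P-KO. ND6 had 7 window counts (0.378% of mitochondrial counts) and 15 (0.136%) in the first and second FOX2 P-KO libraries, and 4 (0.546%) in the first TDP43 P-KO library. Nothing was listed on this strand in the other P-KO libraries or in any WT library. P-KO exceeded WT by 0.177 percentage points on average (exact permutation, two-sided within protein, p = 0.167). No other arrangement of the genotypes gives a larger difference with these values. This test could thus not reach a p below 0.167, and nothing is concluded from it. Between proteins the exact permutation p was 0.6. Each of the 3 values was a single window.

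The 10 windows with the highest mean share of mitochondrial counts all lay in RNR2, and together they held 31.0% of mitochondrial counts on average. The first, chrM:2237-2247, held 4.72% on average and was listed in 10 libraries, every FOX2 and TDP43 library among them. Its share was 3.78% to 9.22% in FOX2 libraries and 4.24% to 6.41% in TDP43 libraries. In hnRNP M it was 5.74% and 5.36% in the P-KO and WT replicate 2 libraries, and it was not listed in either replicate 1 library. The second, chrM:1820-1830, separated the replicate numbers: it held 5.72% to 9.73% in the 6 replicate 2 libraries, against at most 3.19% in replicate 1, where 4 of 6 libraries did not list it. The window chrM:2614-2624 behaved alike, with 3.03% to 9.61% in replicate 2 and at most 2.32% in replicate 1. The window chrM:2520-2530 had the opposite order, with a median of 4.73% in replicate 1 and 1.57% in replicate 2, and there the ranges overlapped. The others were centred at 1706, 3106, 2889, 2259, 3046 and 2410 and averaged between 2.33% and 3.37%. The replicate comparison of windows is a description with no test.

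**Figure D4:**
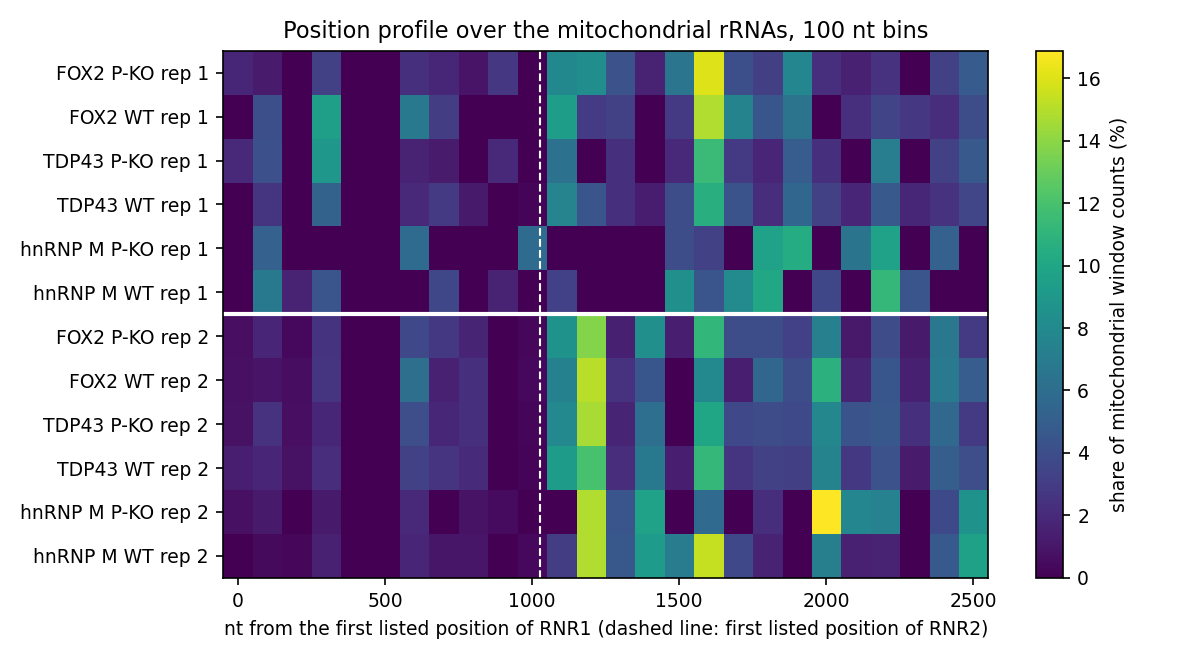
Share of mitochondrial window counts (%, colour) in 100 nt bins along RNR1 and RNR2, by distance in nt from the first listed position of RNR1, with the 6 replicate 1 libraries above the white line and the 6 replicate 2 libraries below it. The bin that holds the second window is bright in all 6 replicate 2 libraries, at 12.0% to 15.0%, against at most 8.21% in replicate 1.

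Profiles along the mitochondrial genome were compared in 100 nt bins of each strand, each library scaled to its own mitochondrial total. In 12 of 12 libraries the most similar other library by Pearson's r had the same replicate number. It was of the same protein in 3 of 12 and of the same genotype in 3 of 12. FOX2 P-KO replicate 2 was closest to TDP43 WT replicate 2 (r = 0.985), and FOX2 P-KO replicate 1 to TDP43 WT replicate 1 (r = 0.914). These correlations run across bins that share one chromosome and are descriptions. The 15 pairs of replicate 2 libraries had a median r of 0.872 (0.749 to 0.985), the 15 pairs of replicate 1 libraries 0.494 and the 36 mixed pairs 0.52. Thinned to the smallest library's 154 mitochondrial counts, these medians were 0.798, 0.455 and 0.474.

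Values of r between FOX2 and TDP43 libraries lay close to those between libraries of the same protein. Among replicate 2 libraries, the 4 pairs of a FOX2 and a TDP43 library had r of 0.943 to 0.985, while the FOX2 P-KO and WT pair had 0.943 and the TDP43 P-KO and WT pair 0.978. Among replicate 1 libraries the FOX2 and TDP43 pairs had 0.758 to 0.914, the FOX2 P-KO and WT pair 0.846 and the TDP43 P-KO and WT pair 0.849. The hnRNP M libraries stood farther off. Their replicate 2 libraries had r of 0.749 to 0.872 with FOX2 and 0.77 to 0.875 with TDP43, and 0.776 with each other. Their replicate 1 libraries, with 154 and 249 mitochondrial counts, had r of 0.32 to 0.494 with FOX2, 0.321 to 0.503 with TDP43 and 0.402 with each other.

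The exact permutation test used Bray-Curtis distances, as the mean between groups minus the mean within groups, one-sided for larger distances between groups. For P-KO and WT within a protein the difference was -0.0777 (exact permutation p = 0.815), and for proteins within a genotype it was -0.0256 (exact permutation p = 0.733). All pairs within a group joined a replicate 1 and a replicate 2 library, while pairs between groups were both mixed and same-numbered. The median distance was 0.292 among replicate 2 pairs, 0.600 among replicate 1 pairs and 0.516 among mixed pairs. Distances thus depended on the replicate numbers of a pair, so values below 0 cannot be read as likeness of the groups. The protein result depended on which libraries were compared. Over the 3 proteins it was above 0 when only same-numbered libraries were compared, as given in the closing section. In 5 libraries, all replicate 2, nuclear listed positions showed an excess of pairs 3 nt apart, 1.39 to 16.0 times the mean of pairs 2 and 4 nt apart, against 0.233 to 1.21 times in the other 7. With proteins relabelled within these 5 and within the other 7 libraries, ignoring genotype, the difference was 0.105 (exact permutation p = 0.0152). Thinned to 154 counts it was 0.0826 (exact permutation p = 0.0146). Without both hnRNP M replicate 1 libraries it was 0.0151 (exact permutation p = 0.16), and with FOX2 and TDP43 libraries only 0.00744 (exact permutation p = 0.267). A p above the threshold does not show that FOX2 and TDP43 profiles are the same.

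**Figure D5:**
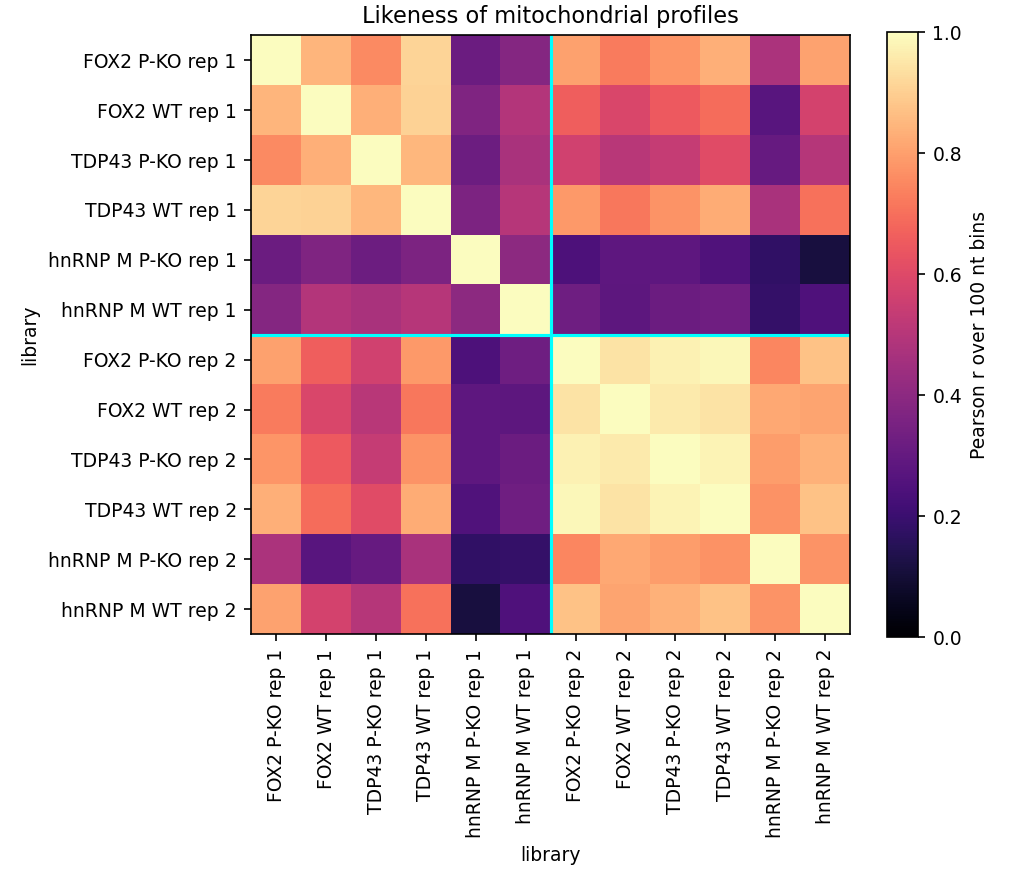
Pearson's r between the mitochondrial profiles of each pair of the 12 libraries (colour, 100 nt bins), replicate 1 libraries first and replicate 2 libraries after the cyan lines. The replicate 2 block is the lightest, with a median r of 0.872, and the hnRNP M replicate 1 rows are the darkest.

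Transcripts were tested with edgeR beside all other features of the libraries, which were 10 kb bins of each strand. After the filter on low counts 10576 features were tested, among them 15 of the 24 mitochondrial transcripts. ND6 and 8 tRNAs did not pass the filter, and the 15 that passed are not all members. No mitochondrial transcript passed an adjusted p of 0.05 between P-KO and WT by edgeR or by DESeq2, either over all proteins (0.123% of all features were called by edgeR), in FOX2 (0.00946%), in TDP43 (0.0284%) or in hnRNP M (0.0473%). At an unadjusted edgeR p below 0.05 there were 1, 1, 0 and 2 of 15 in the same order, against 8.33%, 3.73%, 2.08% and 11.6% of all features. The median log2 fold change of the 15, P-KO over WT, was 1.02 in FOX2, -0.50 in TDP43 and -1.38 in hnRNP M, beside -0.23, 0.03 and -0.18 over all features. These medians depended on single libraries, with the transcripts that pass the filter changing too. The FOX2 median was 0.16 without P-KO replicate 2, 0.36 without WT replicate 1 and 4.97 without WT replicate 2. The TDP43 median was -0.05 without P-KO replicate 1 and -2.54 without P-KO replicate 2. The hnRNP M median was -4.71 without P-KO replicate 2 and turned to 0.41 without WT replicate 2. The interaction test of genotype with protein called 0 of the 15 and 0% of all features. At an unadjusted p below 0.05 it had 2 of the 15, COX2 and CYTB, against 4.94% of all features.

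Between proteins, 0 of 15 were called for FOX2 against TDP43 by edgeR and by DESeq2 (10.2% of all features by edgeR). At an unadjusted edgeR p below 0.05 there were 3, against 24.4% of all features, and DESeq2 had 1. All 15 fitted fold changes were below 0, with a median of -1.57 beside -0.09 over all features. The median was -3.39 without FOX2 WT replicate 2 and -0.999 without TDP43 P-KO replicate 2, the extremes when 1 library was left out.

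For FOX2 against hnRNP M, edgeR called 1 of 15 (19.9% of all features), COX2, a core subunit of cytochrome c oxidase. Its CPM, counts scaled to the library's window counts without TMM, was 134 and 116 (P-KO) and 54.9 and 76.2 (WT) in FOX2 libraries, against 0 and 0 (P-KO) and 0 and 308 (WT) in hnRNP M libraries. At an unadjusted p below 0.05 there were 4 of 15, against 32.2% of all features. The highest value of COX2 was thus in an hnRNP M library, and the 3 other hnRNP M libraries listed nothing. The fitted log2 fold change of 3.94 (SE 1.40, edgeR adjusted p = 0.0296) rests on those zeros and depends on the fit's prior count. Over all positions, the most frequent listed count was 9 in both hnRNP M replicate 1 libraries and 5 in hnRNP M P-KO replicate 2. In FOX2 libraries it was 2 or 3. The part of the listing threshold in this fold was not tested. The call was lost when any 1 FOX2 library, hnRNP M P-KO replicate 1 or 2, or hnRNP M WT replicate 1 was left out (adjusted p of 0.0593 to 0.116), and the log2 fold change was 3.51 to 7.89 with 1 library left out, highest without hnRNP M WT replicate 2.

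For TDP43 against hnRNP M, edgeR called 4 of 15, all higher in TDP43 (15.8% of all features). At an unadjusted p below 0.05 there were 8 of 15, against 29.9% of all features. ND4, a complex I subunit, had 342 and 420 CPM (P-KO) and 751 and 721 CPM (WT) in TDP43 libraries, against 0 and 172 CPM (P-KO) and 0 and 211 CPM (WT) in hnRNP M libraries. The groups did not overlap, and the log2 fold change was 3.64 (SE 1.08, edgeR adjusted p = 0.0124). In the 2 hnRNP M libraries at 0 the most frequent listed count over all positions was 9, against 2 in TDP43 libraries. The part of the listing threshold was not tested. The ND4 fold rests on those 2 libraries and depends on the fit's prior count. It was 3.45 to 7.53 with 1 library left out, 6.79 without hnRNP M P-KO replicate 2 and highest without hnRNP M WT replicate 2. RNR1 had 840 and 4435 CPM (P-KO) and 1718 and 5269 CPM (WT) in TDP43 libraries, against 274 and 911 CPM (P-KO) and 730 and 1393 CPM (WT) in hnRNP M libraries. The groups overlapped through the TDP43 P-KO replicate 1 library (log2 fold change 3.39, SE 1.09, edgeR adjusted p = 0.0199, and 2.72 to 4.82 with 1 library left out). ATP8, an ATP synthase subunit, had 110, 30.7, 159 and 63.6 in the TDP43 libraries, against 0, 0, 48.7 and 32.4 in hnRNP M, P-KO before WT (edgeR adjusted p = 0.0217). COX2 had 29.0, 181, 183 and 131 in TDP43, against 0, 0, 0 and 308 in hnRNP M (edgeR adjusted p = 0.0245). Without hnRNP M P-KO replicate 1 none of these 4 was called (adjusted p of 0.0928 to 0.108), and RNR1 was also lost without either TDP43 replicate 2 library or FOX2 WT replicate 1. Leaving out 1 library also ended the call of COX2 (TDP43 P-KO replicate 2 or hnRNP M P-KO replicate 2) and of ATP8 (either TDP43 replicate 1 library or hnRNP M P-KO replicate 2). RNR2, which holds most of the signal, was not called for TDP43 against hnRNP M (log2 fold change 2.20, SE 1.10, edgeR adjusted p = 0.16) nor for FOX2 against hnRNP M (1.33, SE 1.07, edgeR adjusted p = 0.399).

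These folds carry a shift that touched all features. TMM factors lay between 0.375 and 3.24, and the median log2 fold change over all features was 1.53 for TDP43 against hnRNP M and 1.42 for FOX2 against hnRNP M. The medians of the mitochondrial transcripts were 2.20 and 0.81 on the same scale, and with 1 library left out they were 2.11 to 5.502 and 0.20 to 3.88. With library totals and no TMM, none of the 15 was called for TDP43 against hnRNP M (4.7% of all features). There the mitochondrial median was 0.96 beside 0.45 over all features. For FOX2 against hnRNP M the calls turned: 3 of 15 transcripts, CYTB, ND4L and ND5, were then lower in FOX2 (13.4% of all features were called). The mitochondrial median was -0.92 beside 0 over all features. Without both hnRNP M replicate 1 libraries, 18 mitochondrial transcripts passed the filter and each hnRNP M group kept 1 library. The mitochondrial median was then 2.36 for TDP43 against hnRNP M, beside 2.05 over all features. For FOX2 against hnRNP M it was 0.24 beside 1.79. There 5 of 18 were called lower in FOX2 than in TDP43 (14.1% of all features). Without hnRNP M WT replicate 2 alone, 9 of 17 were called for FOX2 against hnRNP M (18.8% of all features) and 11 of 17 for TDP43 against hnRNP M (18.4%).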

How the data were processed

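Per the labels, 12 iCLIP libraries were made. Bowtie and the build GRCh37 (hg19) are named in the submitters' processing notes. No source used here gives the aligner's version or a peak caller. The deposited counts are whole numbers per listed position without normalization. Whether reads or cDNAs were counted is not stated. The authors' deposited p-value or q-value, which of them is not stated, was never above 0.05. That each count covers 11 nt was read from the values.

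From these files, windows, shares and 100 nt profiles were computed in Python 3.11.15. Window counts per transcript and per 10 kb bin of each strand were tested with edgeR 4.0.16 in R 4.3.3 (filterByExpr, TMM, quasi-likelihood F test, 1 mean per protein and genotype, Benjamini-Hochberg adjustment), with DESeq2 1.42.0 as an alternative. In edgeR's test on simulated data for FOX2 against TDP43, over 7968 features, 27% of 32-fold and 2% of 8-fold changes were recovered, with 0 false calls among 29. The simulation gave every feature the same dispersion and changed 100 features at each fold, so these rates need not hold for the real data. Shares, strand and profiles were tested by exact permutation over libraries. Transcripts were matched to RefSeq genes of GRCh38.p14 by position, allowing 2 nt past a gene's end. Named are transcripts with 5% or more of mitochondrial counts on average, transcripts past the edgeR threshold and the 10 windows of highest mean share; further transcripts named in the text were picked after their values were seen. The members and lists were chosen with earlier results of these data known. Alternatives were other window counts, spacings, bins, filters and normalizations, and leaving out libraries.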

Additional observations from a re-analysis of the deposited data

How the results depend on the processing

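Counts rest on few libraries, with 2 per group and as few as 154 mitochondrial counts. Small differences were not detectable, and large ones could be missed too. In the simulated data for FOX2 against TDP43, edgeR recovered 2% of 8-fold and 27% of 32-fold changes. The genotype difference in share kept p above 0.05 in every alternative run, but its sign turned when windows were counted (0.113). It was between -0.732 and 0.247 when 1 library was left out. Between proteins, only counting windows moved the share past the threshold (8.28 as a sum of squares, exact permutation p = 0.00148). The others, among them relabelling within genotype and replicate number, gave exact permutation p of 0.101 or more. The minus-strand tests and the correlation kept direction and side of the threshold throughout. The genotype test of the minus strand, however, could not pass the threshold in the main setting. The genotype test of profiles also kept both, and it could not be fitted within the libraries with and without the 3 nt excess.

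For the protein test of profiles, the sign turned with 500 nt bins (0.00356). It turned too within the libraries with and without the 3 nt excess (0.105, thinned 0.0826, without both hnRNP M replicate 1 libraries 0.0151, FOX2 and TDP43 only 0.00744), and it was between -0.0623 and 0.0318 when 1 library was left out. With a replicate block, comparing only libraries of the same number, the value was 0.0847 (exact permutation p = 0.0267), thinned 0.0635, with 1 minus Pearson r 0.0898, without both hnRNP M replicate 1 libraries 0.0284 (exact permutation p = 0.133) and with FOX2 and TDP43 only -0.00482. Same-numbered libraries deviated from their group means over all features with correlations of 0.00797 to 0.133 (1 of 15 pairs of groups over 0.1). These were low but all above 0, and the main tests did not pair libraries by number. The mitochondrial share, however, was higher in replicate 2 in 6 of 6 groups, and the main share tests leave that difference inside the groups. In the genotype tests the block restricted only the relabelling, so their differences equal the main ones by construction. They were -0.242 in share (exact permutation p = 0.563), 0.177 points in minus-strand share and -0.0777 in profile. In that profile test, pairs within a group still joined a replicate 1 and a replicate 2 library. The comparisons by 3 nt excess, those between proteins with the replicate block and those without both hnRNP M replicate 1 libraries were chosen after the data were seen. The cause of the changes was not tested.

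Calls between P-KO and WT stayed at 0 in every edgeR alternative, where at most 1.42% of all features were called. For FOX2 against TDP43 the count was 2 of 15 without TMM (10.9% of all features) and 3 of 6 by number of windows (59%). It was 5 of 18 without both hnRNP M replicate 1 libraries (14.1%). For FOX2 against hnRNP M it was 2 of 15 with DESeq2 (21.5% of all features) and 2 of 24 with no filter (1.26%). With the replicate block (19.3%) or the 3 nt term (19.5%) it was 4 of 15. It was 0 without both hnRNP M replicate 1 libraries and 0 to 9 with 1 library left out. Lower in FOX2 were 3 of 15 without TMM (13.4%) and 2 of 6 by number of windows (48.9%). For TDP43 against hnRNP M it was 5 of 15 with DESeq2 (18.3% of all features) and 2 of 24 without the filter (0.323%). With the replicate block (14.7%) or the 3 nt term (13.6%) it was 6 of 15. It was 0 of 15 without TMM (4.7%), 0 of 6 by number of windows (24.8%) and 1 to 11 with 1 library left out.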
